A study of Mus musculus with 6 samples.

Results

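The red blood cell barcodes of the adult mouse cortical surface were chosen by 2 measurements. A droplet barcode belonged to them when over 20% of its unique molecular identifiers (UMIs, counted RNA molecules) were on genes whose symbol starts with Hba- or Hbb-, and when it had under 500 detected genes. The rule found 6969 of the 10809 barcodes of cortical surface-associated (CSA) libraries 3 and 4, in a series of 17560 barcodes. Library 3 held 3929 of its 5207 barcodes, 75.5% (exact binomial 95% interval 74.3 to 76.6), and library 4 held 3040 of 5602, 54.3% (53.0 to 55.6). Because hemoglobin and the number of genes chose the barcodes, both are given below as a description, and the tests concern the make-up of the remaining RNA.

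The series profiled cells at the boundary between the leptomeninges and the cerebral cortex with single-cell RNA sequencing (scRNA-seq, 10x Genomics droplets that tag the 3′ end of each transcript). All 6 libraries came from adult wild-type C57BL6 mice: 4 CSA libraries from the enzymatically digested upper surface of the cortex, and 2 bone-associated (BA) libraries from tissue on the inside of the skull. Each library pooled several mice, with equal numbers of each sex, so the library is the replicate and n = 2 for the red cell barcodes. The mice were not perfused, so cells could come from the blood as well as from the tissue. Cells were sorted as positive for DRAQ5, a dye of DNA, and negative for propidium iodide, a dye of dead cells.

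Red blood cells are made in the bone marrow from nucleated erythroblasts, which fill with hemoglobin, stop transcription and expel the nucleus. The young cell that enters the blood, the reticulocyte, still carries messenger RNA, ribosomes and mitochondria and loses them as it matures, largely through ubiquitin-dependent protein breakdown and autophagy. Hemoglobin joins alpha and beta globin chains with heme, an iron-containing ring, and adult C57BL6 mice make alpha chains from Hba-a1 and Hba-a2 and beta chains from Hbb-bs and Hbb-bt.

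The promoters of the 2 adult beta globin genes and of Alas2, which encodes the erythroid enzyme for the opening step of heme synthesis, are shown because the balance of the beta chains and the level of Alas2 recur below. Each is the 250 bases before the RefSeq transcript start in GRCm38.p6, read from the 5′ end on the gene's own strand. Hbb-bs lies on the minus strand with its window at chr7:103827929-103828178, Hbb-bt on the minus strand at chr7:103813924-103814173, and Alas2 on the plus strand at chrX:150547167-150547416. In the GENCODE annotation of GRCm38 these protein-coding genes span chr7:103826534-103828096, chr7:103812524-103813996 and chrX:150547375-150570638. Capitals mark matches to AGATAA, a motif of GATA factors (or TTATCT, the same motif read on the other strand), and to CCACACCC, a CACC-box of the kind that Klf1 binds.
Hbb-bs: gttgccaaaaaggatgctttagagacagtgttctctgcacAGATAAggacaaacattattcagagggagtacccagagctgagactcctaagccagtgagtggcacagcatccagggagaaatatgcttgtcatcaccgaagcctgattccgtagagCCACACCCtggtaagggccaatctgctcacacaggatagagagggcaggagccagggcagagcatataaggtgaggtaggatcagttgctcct
Hbb-bt: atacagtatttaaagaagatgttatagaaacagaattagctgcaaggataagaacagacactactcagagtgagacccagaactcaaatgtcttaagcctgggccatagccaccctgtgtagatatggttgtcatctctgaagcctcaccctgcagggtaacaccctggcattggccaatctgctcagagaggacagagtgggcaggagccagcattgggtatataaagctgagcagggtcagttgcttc
Alas2: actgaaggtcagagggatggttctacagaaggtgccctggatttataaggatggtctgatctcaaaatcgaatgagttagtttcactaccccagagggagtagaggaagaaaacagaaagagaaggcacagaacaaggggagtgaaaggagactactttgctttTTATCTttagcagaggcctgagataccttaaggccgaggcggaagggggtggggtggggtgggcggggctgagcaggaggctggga
The Hbb-bs window held both motifs, the Alas2 window held the GATA motif on the other strand, and the Hbb-bt window held neither of these exact strings. Over 32851 promoter windows, 9.99% held AGATAA on either strand and 3.20% held CCACACCC on either strand. Among the 37 genes that were most abundant or had the largest rise in the red cell barcodes, 27 had a promoter entry, of which 4 (14.8%) held AGATAA and 0 held CCACACCC. Some of these genes had several windows and were counted when any matched, so this share and that over all windows have different units. A match is a string of letters and was not examined as a binding site.

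Among barcodes under 500 genes, hemoglobin separated the red cell barcodes from the rest with little in between. The lowest hemoglobin share inside the rule was 75.9% in library 3 and 75.1% in library 4, while the highest share outside it, among barcodes under 500 genes, was 3.80% and 5.81%. The limit on genes also fell in a sparse range, since the red cell barcode with the most genes had 455 in library 3 and 487 in library 4, and the hemoglobin-rich barcode with the fewest genes outside the rule had 534 and 529. Only 3 and 6 red cell barcodes had 90% or less hemoglobin. Hemoglobin-rich barcodes with 500 or more genes spread wider, from 20.7% to 90.2% hemoglobin in library 3 and from 29.4% to 91.2% in library 4. Libraries 3 and 4 shared 9 barcode sequences, of which 4 were red cell barcodes in both.

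**Figure D1:**
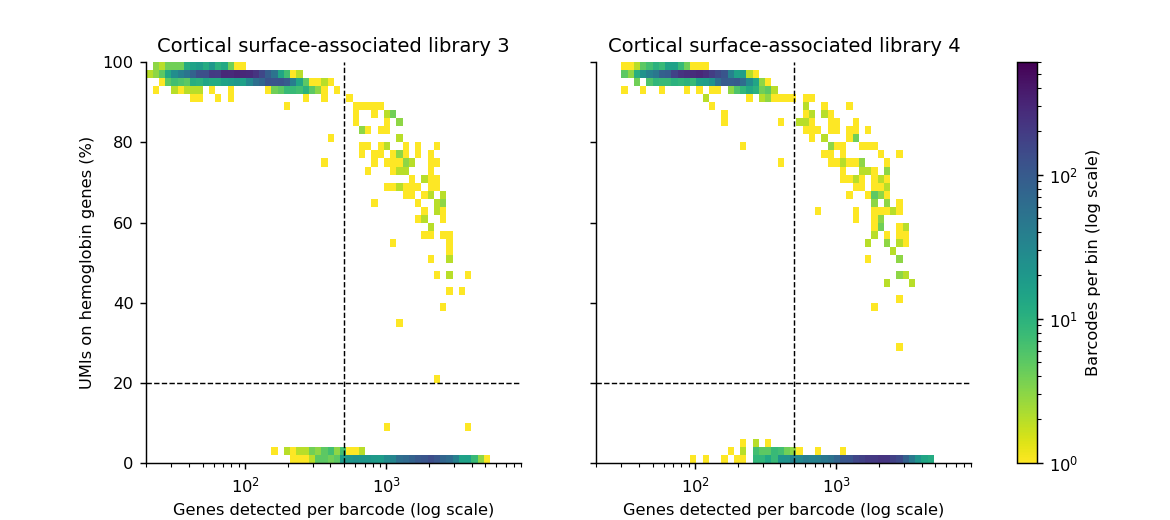
Each bin counts barcodes by their detected genes (horizontal axis, log scale) and their percent of UMIs on hemoglobin genes (vertical axis) in libraries 3 and 4, with dashed lines at 500 genes and 20%. The red cell barcodes form the dense band at the upper left, hemoglobin-rich barcodes with more genes form a sparse tail to the right, and other cells lie along the bottom.

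The red cell barcodes held most of the RNA counted in these libraries. They carried 47114217 UMIs in library 3 and 39872589 in library 4, which was 85.1% and 71.0% of all UMIs and 97.0% and 95.3% of hemoglobin UMIs. In library 3 a barcode had between 2262 and 42799 UMIs, with a median of 12103, and a median of 90 genes. In library 4 it had between 2578 and 37544 UMIs, with a median of 13189, and a median of 106 genes. The other cells (500 or more genes, mitochondrial share no higher than 10%) numbered 1103 and 2241 and had fewer UMIs (medians of 5724 and 5498) on more genes (1862 in each). Their number includes 120 and 153 barcodes that were rich in hemoglobin but had 500 or more genes.

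Without hemoglobin, little RNA remained per cell but much in sum. Non-hemoglobin UMIs made up 3.52% of the red cell UMIs in library 3 and 3.49% in library 4, with medians of 378 and 407 per barcode, and they summed to 1656583 and 1392622. They fell on 7608 and 9327 genes, of which 651 and 665 had at least 50 UMIs. All levels below are UMIs scaled to a sum of 1000000 non-hemoglobin UMIs per class and library (CPM). Each 3′ tag counts 1 molecule whatever its length, so levels were not divided by transcript length.

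The rule was also applied to the other 4 libraries, where it found 11 of 6751 barcodes. CSA library 1 had 0 of 951, which allows a share of up to 0.387% (exact binomial 95% limit), CSA library 2 had 1, BA library 1 had 4 and BA library 2 had 6. These 11 barcodes were not all alike, with hemoglobin shares from 42.4% to 98.1%, and Alas2 was detected in 9 of them. What differed between the CSA libraries in handling was not tested, and counts of 11 are too few for a description of their transcripts.

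A small set of transcripts made up most of the remaining RNA. The 25 most abundant genes took 70.6% of non-hemoglobin UMIs in library 3 and 67.0% in library 4, against 19.9% and 20.4% for the 25 most abundant genes of the other cells. The 100 most abundant took 87.9% and 85.3%. The limit of 500 genes per barcode bears on this concentration, so it is a description.

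Gene models that overlie ribosomal RNA led the list. Gm42418, a noncoding model over the ribosomal RNA unit of chromosome 17, had 291988 CPM in library 3 and 253717 in library 4, against 31246 and 31704 in the other cells. AY036118, which lies inside the same unit on the opposite strand, had 66975 and 53822 against 4154 and 4282. Together the 2 models took 35.9% and 30.8% of the red cells' non-hemoglobin UMIs and 3.54% and 3.60% of the other cells'. They overlap each other and the ribosomal RNA repeat, so how many of these UMIs come from ribosomal RNA was not tested.

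The most abundant named protein-coding transcript was Bpgm, whose enzyme makes 2,3-bisphosphoglycerate, the molecule that lowers the oxygen affinity of hemoglobin. It had 34202 CPM in library 3 and 34737 in library 4, against 287 and 200 in the other cells. Ftl1, the ferritin light chain of iron storage, had 32632 and 33608, against 2583 and 2267. Alas2 had 29998 and 31826, against 265 and 188. For each of these genes the red cell shares of both libraries lay close together and far above both shares of the other cells. A larger share need not mean more copies per cell. Median non-hemoglobin UMIs per barcode were 378 and 407 in red cell barcodes, against 5184 and 5226 in the other cells.

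Transcripts of ubiquitin and of its ligases followed. Ubb, a polyubiquitin gene, had 26270 and 27842 CPM in the red cell barcodes, against 1938 and 2081 in the other cells. Mkrn1, a ubiquitin ligase, had 25303 and 25432, against 327 and 227. Oaz1, whose product sends ornithine decarboxylase to the proteasome, had 22354 and 22505, against 887 and 874. Sec61g, a subunit of the channel that moves proteins into the endoplasmic reticulum, had 17874 in library 3 and 22009 in library 4, a wider gap than for the 3 genes before it, and 562 and 582 in the other cells.

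Tpt1, a translationally controlled protein found in most cells, had 16574 and 16414 CPM, and its other-cell values of 6761 and 6389 were much nearer. Fam220a had 13111 and 13488, against 139 and 95.9. Bnip3l, the mitochondrial receptor that reticulocytes use for autophagy, had 10677 and 11109, against 270 and 240. Most of the rest of the 25 lay between 6500 and 11219, and mt-Co1, the mitochondrial cytochrome oxidase subunit, differed least between red cell barcodes (7243 and 8057) and other cells (6295 and 6025).

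**Figure D2:**
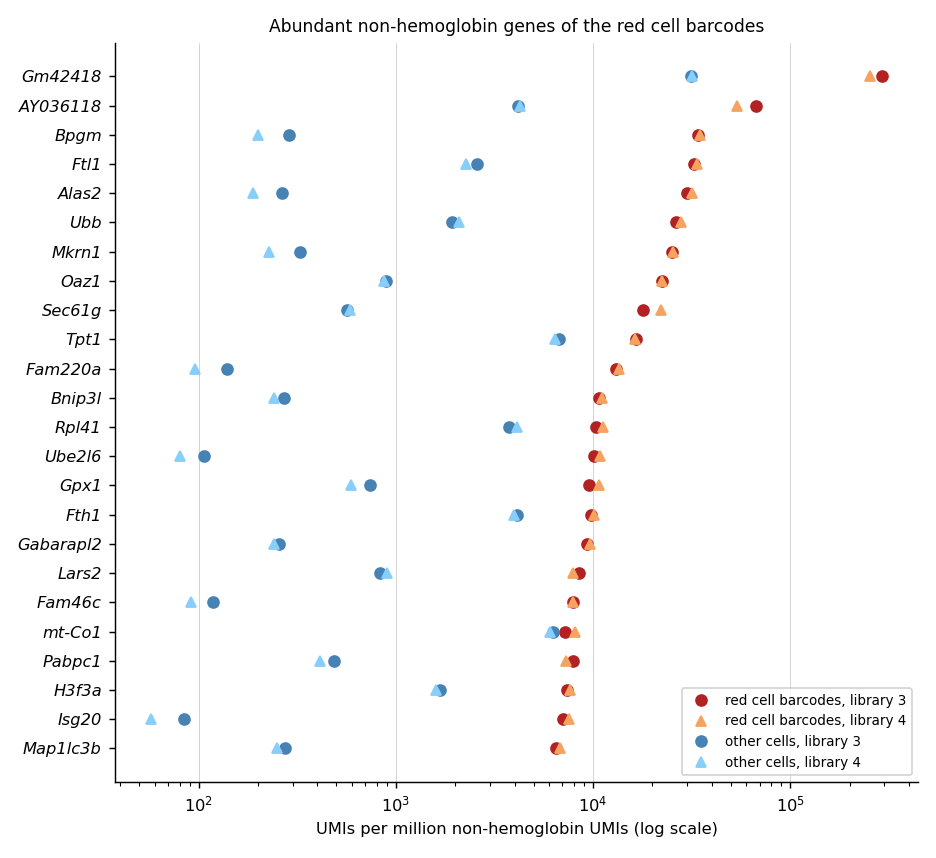
Each row is 1 of the most abundant non-hemoglobin genes, with CPM on a log axis for the red cell barcodes (red and orange) and the other cells (dark and light blue) of libraries 3 (circles) and 4 (triangles). The red cell values exceed the other-cell values in every row, narrowly for mt-Co1 and by over 100 times for Bpgm and Alas2.

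The comparison of red cell barcodes with other cells asked which transcripts, apart from hemoglobin, set them apart. The UMIs of each class were summed within each library, and edgeR's quasi-likelihood test was fitted over 12941 genes with the library as a block. A call required a log2 difference of 1 or more in size and a p below 0.05 after Benjamini-Hochberg adjustment. The scaling decides what higher means here. The main fit used trimmed mean of M-values (TMM) factors, which line up the bulk of genes and moved the scale of the red cell sums by -3.97 on the log2 scale, so that it measures each gene against the trace level that most transcripts had in red cell barcodes. The fit scaled to the total of non-hemoglobin UMIs, added after the data were seen, compares shares of the RNA.

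With TMM, 1164 genes (8.99% of those tested) were higher in red cell barcodes, 531 (4.1%) were lower and the median log2 difference was -0.86. The count of lower genes moved with the settings, to 176 with DESeq2, 341 with a filter of 50 UMIs, 871 without the block and 92 without the limit on genes. With the total, 318 genes (2.46%) were higher, 10779 (83.3%) were lower and the median was -4.79. All 318 were among the 1164, and they held 88.7% and 85.9% of the red cells' non-hemoglobin UMIs against 8.17% and 8.07% of the other cells'. A call as higher under both scalings thus marks a larger share, while a gene that is higher with TMM only lies above the trace level but at a like or smaller share of the RNA. In summed counts, more copies per cell and more cells with a copy cannot be told apart.

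Hbq1a, a theta-like globin gene of the alpha cluster that the rule did not use, had the largest rise with TMM among genes with at least 50 UMIs in the red cell barcodes of each library. It had 860 and 843 CPM in the red cell barcodes against 4.80 and 3.96 in the other cells, a log2 difference of 11.56 ± 0.39 (SE, TMM; adjusted p = 6.15e-180, edgeR with Benjamini-Hochberg adjustment) and of 7.61 with the total. Its neighbour Hbq1b had 419 and 484 against 8.98 and 4.96. Both were called with both scalings. They are paralogs, so the counting could have split reads between them. The limit of 50 UMIs in the red cell barcodes itself favoured rises. Of the 620 genes that met it, 540 were called higher with TMM and 256 with the total.

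Large rises were also found for Bpgm (log2 difference 11.14 ± 0.52 with TMM, 7.17 with the total) and Alas2 (11.08 ± 0.51 and 7.11). Ube2l6, a conjugating enzyme for ubiquitin and for ISG15, had 10139 and 10829 CPM against 106 and 80. Isg20, an interferon-inducible RNA exonuclease, had 7068 and 7575 against 83.7 and 57.3. Less abundant genes rose as far, among them Syt14, of the synaptotagmin family, with 130 and 129 against 0.774 and 1.29, and Rec114, known from meiotic recombination, with 2700 and 3475 against 33.4 and 27.7.

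For some of these genes the other cells' values came largely from barcodes rich in hemoglobin. The 120 and 153 hemoglobin-rich barcodes with 500 or more genes held 1698 of the 1714 Alas2 UMIs of the other cells in library 3 (99.1%) and 2572 of 2616 in library 4 (98.3%). They also held 95.0% and 89.7% of the Bpgm UMIs, but 34.6% and 25.3% of the Sec61g and 38.2% and 32.5% of the Bnip3l UMIs. With these barcodes left out, the order changed, with a log2 difference of 17.20 for Alas2, 15.43 for Hbq1a and 14.80 for Bpgm (TMM), and 1162 genes were higher and 526 lower with TMM.

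The largest falls, among genes with at least 500 UMIs in the other cells of each library, were genes that red cell barcodes all but lacked. Such genes passed the filters on low counts through the other cells alone, so that they could be named only if they fell, and 3011 of the 12941 tested genes had 0 UMIs in both red cell sums. Bcl2a1b, a survival gene of the Bcl-2 family in leukocytes, had 0 UMIs in both libraries against 177 and 160 CPM in the other cells, at least 97.5-fold and 74.5-fold lower against a floor of 3 UMIs per library. Mmp8, a neutrophil collagenase, was at least 47.6-fold and 30.2-fold lower and Taok3, a kinase, at least 45.4-fold and 35.1-fold. Il2rg, the shared receptor chain of several interleukins, had 1 and 0 UMIs, and Xist, the noncoding RNA of the inactive X chromosome, had 4 and 2 against 421 and 360 CPM. Most of these falls depend on the limit of 500 genes in the rule, since without it 92 genes were lower and the log2 difference of Taok3 was 0.0011 and that of Il2rg 0.24.

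Transcripts of all 8 enzymes of heme synthesis were detected, and most of these UMIs were Alas2. All 8 were called higher with TMM, as were 8.99% of all genes tested. With the total 3 were higher, 2 lower and 3 not called (median -0.10), against 2.46% higher and 83.3% lower over all genes (median -4.79). The 3 were Alas2, Fech (ferrochelatase, which inserts iron), with 3301 and 3702 CPM against 65.2 and 48.6, and Urod, with 139 and 169 against 32.8 and 36.2. Alad, Uros, Cpox and Ppox had 7 to 19 UMIs in each library, so 49695 and 44321 of the list's 55535 and 49869 UMIs were Alas2.

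Iron handling rested on 4 genes. Of 12 members, 6 were higher with TMM, and with the total 4 were higher and 8 lower (median -2.02). Over all genes tested, 8.99% were higher with TMM, and with the total 2.46% were higher and 83.3% lower. Ftl1 and Fth1, the ferritin chains, had the highest levels, with Fth1 at 9807 and 10059 CPM against 4119 and 3991. Slc25a37, the mitochondrial iron importer mitoferrin, had 3809 and 3827 against 113 and 89.8, and Ncoa4, the receptor for ferritin breakdown, had 1600 and 1659 against 78.5 and 69.1. Tfrc, the transferrin receptor through which erythroblasts take up iron, had 19 and 27 UMIs and was higher with TMM (log2 2.84) but lower with the total (-1.13).

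Genes of the membrane and its skeleton were detected throughout. All 18 were higher with TMM, and with the total 11 were higher, 1 lower and 6 not called (median 1.56). Of all genes tested, 8.99% were higher with TMM, and with the total 2.46% were higher and 83.3% lower (median -4.79). Epb41, protein 4.1 of the spectrin network, had 5381 and 5192 CPM against 120 and 90.7. Slc4a1, the band 3 anion exchanger, had 534 and 631 against 49.8 and 36.6. Cd47, the signal against engulfment, was the exception, at 77.9 and 110 against 366 and 354, higher with TMM (log2 2.01) and lower with the total (-1.96).

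Erythroid transcription factors ranged from clearly detected to a handful of UMIs. Of 8 listed, 6 were tested and all 6 were higher with TMM, as were 8.99% of all genes tested. With the total 2 were higher and 4 not called (median -0.08), against 2.46% higher and 83.3% lower over all genes (median -4.79). The 2 were Lmo2, with 548 and 563 CPM against 164 and 147, and Hemgn, with 89.9 and 105 against 27.7 and 20.4. Gata1 had 9 and 6 UMIs over all red cell barcodes and Gfi1b had 0 in both libraries.

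Transcripts for removing mitochondria and proteins were prominent. Of 15 ubiquitin and protein clearance genes, 14 were higher with TMM, and with the total 12 were higher, 1 lower and 2 not called (median 3.75). The shares over all genes tested were 8.99% higher with TMM, and 2.46% higher and 83.3% lower with the total. Ube2o, the conjugating enzyme known to clear ribosomes from reticulocytes, had 1997 and 2119 CPM against 44.1 and 28.5, and Rnf10, a ubiquitin ligase, had 3789 and 3615 against 123 and 105. The list took 7.40% and 7.67% of the red cells' non-hemoglobin UMIs, against 0.400% and 0.416% in the other cells.

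Of 10 genes of mitochondrial clearance and autophagy, 6 were higher with TMM, and with the total 5 were higher, 4 lower and 1 not called (median 0.46, against -4.79 over all genes tested, of which 8.99% were higher with TMM, and 2.46% higher and 83.3% lower with the total). Besides Bnip3l the high ones were Gabarapl2, with 9311 and 9625 CPM against 255 and 241, and Map1lc3b, with 6500 and 6779 against 275 and 250, both ubiquitin-like proteins of the autophagosome membrane. Bcl2l1, the survival factor of late erythroblasts, had 587 and 605 against 39.2 and 35.1. Ulk1 and Atg7, which act early in autophagy, had 1 to 4 UMIs in each library, and Sqstm1, a cargo receptor, was higher with TMM (log2 3.51) and not called with the total (-0.46).

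Antioxidant genes differed widely in level. Of 12, 9 were higher with TMM, and with the total 5 were higher, 6 lower and 1 not called (median -1.42, against -4.79 over all genes tested, of which 8.99% were higher with TMM, and 2.46% higher and 83.3% lower with the total). Gpx1, the glutathione peroxidase of red cells, had 9524 and 10693 CPM against 742 and 591. Prdx2, an abundant red cell peroxiredoxin, had 4573 and 5118 against 316 and 316, and Cat, catalase, had 719 and 796 against 55.6 and 50.1. The paralogs Gpx4, at 97.2 and 121 against 457 and 546, and Prdx1, at 44.1 and 68.9 against 361 and 402, were higher with TMM (log2 1.76 and 1.18) and lower with the total (-2.21 and -2.79).

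Glycolysis genes other than Bpgm lay near the level of most genes. Mature red cells depend on glycolysis for energy. Apart from Bpgm all 12 other tested members were lower with the total, as were 83.3% of all genes tested. With TMM 1 was higher (Bpgm), 1 lower (Eno1) and 11 not called, against 8.99% higher and 4.1% lower among all genes tested. The median of the list was -4.47 with the total and -0.47 with TMM, against -4.79 and -0.86 over all genes tested. Gapdh, the most abundant of them, had 33.8 and 46.7 CPM against 602 and 745. The remaining members had between 0 and 27 UMIs in each library, so their levels were at the trace of most genes. Bpgm alone held 56659 of the list's 56762 UMIs in library 3 and 48376 of 48565 in library 4.

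Among other genes known from red cells, 12 of 14 were higher with TMM, and with the total 10 were higher, 2 lower and 2 not called (median 3.94). For all genes tested these shares were 8.99% higher with TMM, and 2.46% higher and 83.3% lower with the total. Fam46c, a poly(A) polymerase, had 7924 and 7912 CPM against 118 and 91.7. Car2, carbonic anhydrase, had 3115 and 2998 against 227 and 270, and Cd24a, a surface protein, had 2885 and 3002 against 159 and 120. Car1, the other red cell carbonic anhydrase, had 12 and 9 UMIs and was higher with TMM only.

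**Figure D3:**
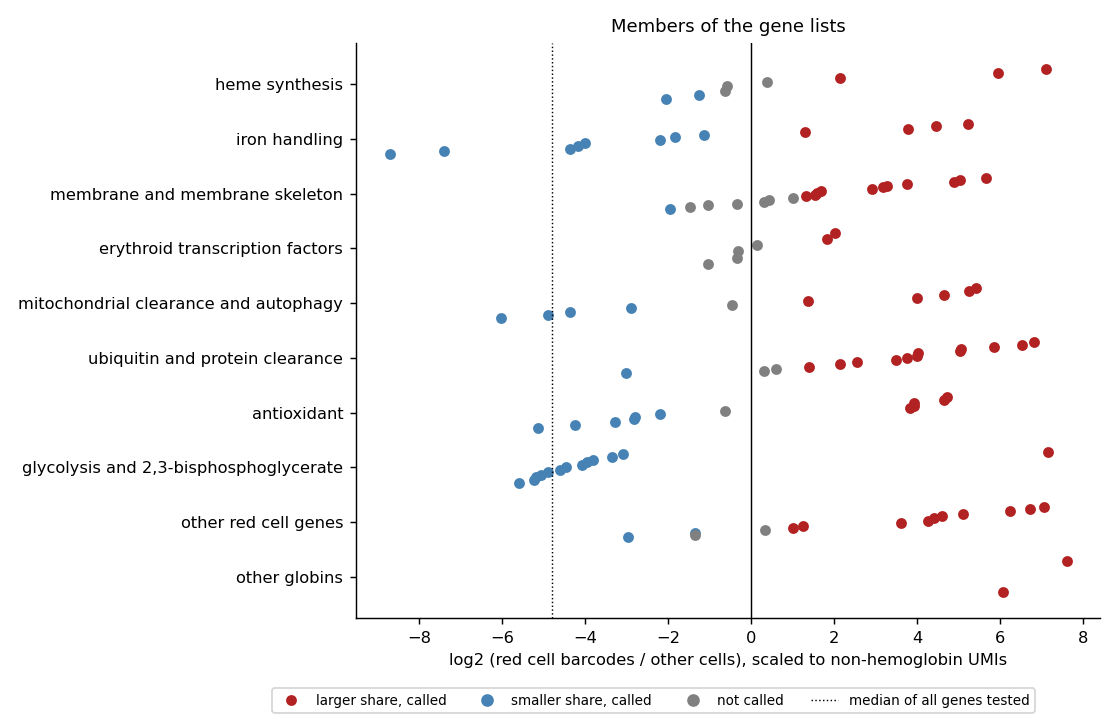
Each point is 1 tested member of a gene list, placed by its log2 difference between red cell barcodes and other cells scaled to the total of non-hemoglobin UMIs, red where called as a larger share, blue where called as a smaller share and grey where not called. The dotted line marks the median of all genes tested (-4.79), and most points of the ubiquitin and membrane lists lie right of 0 while the glycolysis points, apart from Bpgm at 7.17, lie left of it.

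Ribosomal protein genes and mitochondrially encoded genes took smaller shares in the red cell barcodes than in the other cells. The 86 ribosomal protein genes took 5.52% and 6.17% of the red cells' non-hemoglobin UMIs against 20.4% and 20.4% in the other cells. Of 84 tested, 40 were higher and 6 lower with TMM, but with the total 1 was higher and 77 lower, with a median of -3.02 against -4.79 over all genes tested, of which 83.3% were lower. The 1 was Rpl41, which encodes the shortest ribosomal protein, with 10324 and 11219 CPM against 3771 and 4135. The 13 mitochondrially encoded genes took 1.51% and 1.76% against 3.64% and 3.39%, and while 10 were higher with TMM, 12 were lower with the total and mt-Co1 was not called (log2 4.28 with TMM, 0.31 with the total). Their median with the total was -2.22, also above that of all genes tested. With TMM, 8.99% of all genes tested were higher and 4.1% lower.

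RNAs that stay in the nucleus were low in barcodes whose cells had been sorted for DNA dye. Malat1, the most abundant of them, had 142 CPM in library 3 and 469 in library 4, against 25154 and 25332 in the other cells, lower with both scalings (log2 -2.62 ± 0.28 with TMM, adjusted p = 5.63e-19 by edgeR with Benjamini-Hochberg adjustment). At least 1 Malat1 UMI was present in 216 of the 3929 red cell barcodes of library 3 and in 15.1% of those of library 4. All 4 nuclear-retained RNAs were lower with the total (83.3% of all genes tested were) and 2 with TMM (4.1% of all). Their share of non-hemoglobin UMIs depends on the limit of 500 genes in the rule, at 0.0317% with it and 0.822% without it (means of both libraries). The files hold no measurement of DNA itself.

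Detection per barcode was set beside lymphocytes, which should lack red cell transcripts. These were 226 and 438 of the other cells with at most 20% hemoglobin and at least 3 of 9 lymphocyte markers. They had medians of 4697.5 and 4679 non-hemoglobin UMIs against 378 and 407 in the red cell barcodes. Hemoglobin-rich barcodes, which held most Alas2 and Bpgm UMIs of the other cells, were thus left out beforehand. The low detection of these 2 genes in lymphocytes depends in part on that limit. Alas2 was detected in 98.8% and 99.4% of red cell barcodes against 2.65% and 1.60% of lymphocytes. Bpgm was detected in 90.7% and 94.3% against 7.52% and 8.45%. Detection in the shallower red cell barcodes therefore exceeded that in the deeper lymphocytes many times over.

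Further red cell transcripts were found in fewer barcodes than Alas2 and Bpgm. Fech was detected in 63.9% and 70.3% (3.10% and 3.42% of lymphocytes) and Hbq1a in 25.3% and 26.1% (0.442% and 0.228%). Slc4a1 was detected in 13.1% and 15.9%, against 0.442% of lymphocytes in library 3 and 0 of 438 in library 4. In contrast, Ttr, the main transcript of the choroid plexus, was detected in 118 of the 3929 red cell barcodes of library 3 and 11.6% of those of library 4, and in 3.54% and 12.3% of lymphocytes, and S100a8 of neutrophils in 1.15% and 7.11% against 1.33% and 5.71%. For Ttr these shares were below those of the lymphocytes, and for S100a8 they were below them in library 3 and above them in library 4.

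Defining markers of the other cells of the tissue were near 0 in the red cell barcodes. Summed over all red cell barcodes of libraries 3 and 4, the 9 lymphocyte markers had 19 and 46 UMIs, 1 and 0 of them at 0 (most abundant Cd79b with 6 and Trbc2 with 12). The 8 platelet markers had 2 and 2 UMIs with 6 at 0 in each, and the 5 endothelial markers had 24 and 45, led by Cldn5. The 6 microglial markers had 298 and 565 UMIs and none was at 0, with C1qa (87) the most abundant in library 3. Neutrophil markers had 127 and 643 UMIs, led by S100a9 with 56 and 295, with 2 of 7 at 0 in library 3 and 0 in library 4. As shares of non-hemoglobin UMIs, these lists were 114 and 33.6 times (lymphocyte), 53.7 and 23.3 times (microglia) and 150 and 44.9 times (neutrophil) higher in the other cells.

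The remaining marker lists had few UMIs as well. Border macrophage markers had 78 and 64 UMIs, mural markers 30 and 48, mesenchymal markers 19 and 16, astrocyte markers 8 and 21, oligodendrocyte markers 15 and 54, and neuron markers 3 and 2. As shares they were 18.1 and 4.42 times (astrocyte), 16.8 and 9.69 times (oligodendrocyte) and 1.97 and 1.95 times (neuron) higher in the other cells. With TMM 1 of the 4 oligodendrocyte markers was higher (Mbp), 1 was lower and 2 were not called. With the total all 4 oligodendrocyte markers were lower, as were 83.3% of all genes tested. Choroid plexus markers had 136 and 465, of which Ttr gave 125 and 421. Markers of dividing erythroblasts had 77 and 117 UMIs, with 2 and 1 of 10 at 0, Rrm2 (19) the most abundant in library 3 and Hmgb2 (24) in library 4. With TMM 4 of these 10 were higher and 1 lower, against 8.99% higher and 4.1% lower among all genes tested. With the total 9 were lower and 0 higher, a share near the 83.3% lower among all genes tested.

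The levels of most transcripts lay close together in the 2 libraries. Over the 620 genes with at least 50 UMIs in the red cell barcodes of each library, the median log2 ratio of library 4 to library 3 was 0.14, 565 genes (91.1%) lay within 1.5-fold and Pearson's r of log10 levels across genes was 0.991 (genes are not independent replicates). Higher by over 2-fold in library 4 were 10 genes, and 0 in library 3. Among them were S100a9 (log2 2.65), Ttr (2.00), Malat1 (1.72) and Ctsd (1.71), which are not known as red cell genes, and Rpl3 (1.22), H3f3b (1.15) and Ppia (1.00), which most cells use. In the other cells the same ratios were smaller, at 0.82 for S100a9, 0.60 for Ttr and 0.01 for Malat1, and the part of free RNA in this difference was not tested.

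Within the red cell barcodes, the balance of the hemoglobin chains varied. Alpha chain UMIs were 40.3% and 40.9% of hemoglobin, with single barcodes between 11.7% and 71.9% in library 3 and between 27.8% and 56.2% in library 4, and Hba-a1 gave 55.5% and 55.5% of the alpha chain. Hba-a1 and Hba-a2 transcripts are 99.8% identical over 538 aligned bases, so reads cannot be told apart well and this split is uncertain. Hbb-bs gave 83.3% and 83.1% of adult beta chain UMIs, and these transcripts are 88.4% identical over the last 300 bases of each. Embryonic globins were all but absent, with 9 and 11 UMIs of Hbb-y, 1 and 0 of Hbb-bh1 and 0 of Hba-x.

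The Hbb-bs share of beta chain UMIs ranged from 69.7% to 99.8% in library 3, with a median of 83.5%, and from 71.0% to 99.9% in library 4, with a median of 83.3%. Barcodes with a higher Hbb-bs share had fewer non-hemoglobin UMIs. Spearman's rho between the share and non-hemoglobin UMIs per barcode was -0.745 over 3929 barcodes of library 3 and -0.700 over 3040 of library 4, and that with total UMIs was -0.775 and -0.731. For non-hemoglobin UMIs rho was nearer 0 with the alpha chain share of hemoglobin (-0.106 and -0.0379) and with the Hba-a1 share of the alpha chain (-0.176 and -0.104). These are descriptions of barcodes that share a library, and depth moves with the Hbb-bs share.

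Barcodes were put in 7 ranges of the Hbb-bs share, with bounds chosen after the data were seen. The range at most 78% held 392 and 258 barcodes, and the range over 98% held 102 and 49. From the lowest to the highest range, median non-hemoglobin UMIs went from 667.5 to 151.5 in library 3 and from 726.5 to 184 in library 4, and median genes from 154 to 37 and from 174.5 to 51. The medians stepped down in every range in both libraries.

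Some genes took much smaller shares in the highest range. Gpx1 went from 14001 to 250 CPM in library 3 and from 14407 to 102 in library 4. Its values in the highest range rest on very few UMIs, 0.0392 and 0.0204 per barcode over 102 and 49 barcodes. Mkrn1 went from 27327 to 1001 and from 26804 to 915, Bpgm from 42165 to 3878 and from 41713 to 4472, and Car2 from 5891 and 4679 to 0 in both. The membrane gene Slc4a1 had 1036 in the lowest range of library 3 and 0 in the highest, where 102 barcodes are too few to separate 0 from a trace.

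Other genes had their largest shares between the lowest and the highest range. Alas2 had 25035 CPM in the lowest range of library 3, 39173 between 90% and 94%, and 23144 above 98%, and in library 4 it had 25277, 42397 and 23069. Ftl1 went from 23492 to 42508 between 94% and 98% and 33777 above 98% in library 3, and from 25074 to 43998 between 90% and 94% and 35366 above 98% in library 4, so its share ended above its start in both. In UMIs per barcode both genes were lower from range to range, from 17.4 to 3.63 in library 3 and from 19.3 to 4.63 in library 4 for Alas2 and from 16.3 to 5.29 and from 19.2 to 7.10 for Ftl1. The share of Hbq1a lay between 722 and 938 in library 3. In library 4 Hbq1a had 604 in the lowest range, 989 between 82% and 86% and 305 in the highest. That last value rests on 0.0612 Hbq1a UMIs per barcode over 49 barcodes. Its neighbour Hbq1b went from 496 to 0 in library 3 and from 528 to 0 in library 4.

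A further group had its largest shares in the highest range. Gm42418 went from 206650 to 516670 CPM in library 3 and from 184315 to 439329 in library 4. Ribosomal protein genes together went from 5.75% to 9.62% and from 6.48% to 11.5% of non-hemoglobin UMIs, and Rpl41 from 10225 to 25083 and from 12220 to 23374. As the total shrank, these are larger shares of fewer molecules. Mitochondrially encoded genes went from 2.28% to 0.457% in library 3, but in library 4 were 2.52% in the lowest range and 5.62% in the highest, which held 49 barcodes.

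**Figure D4:**
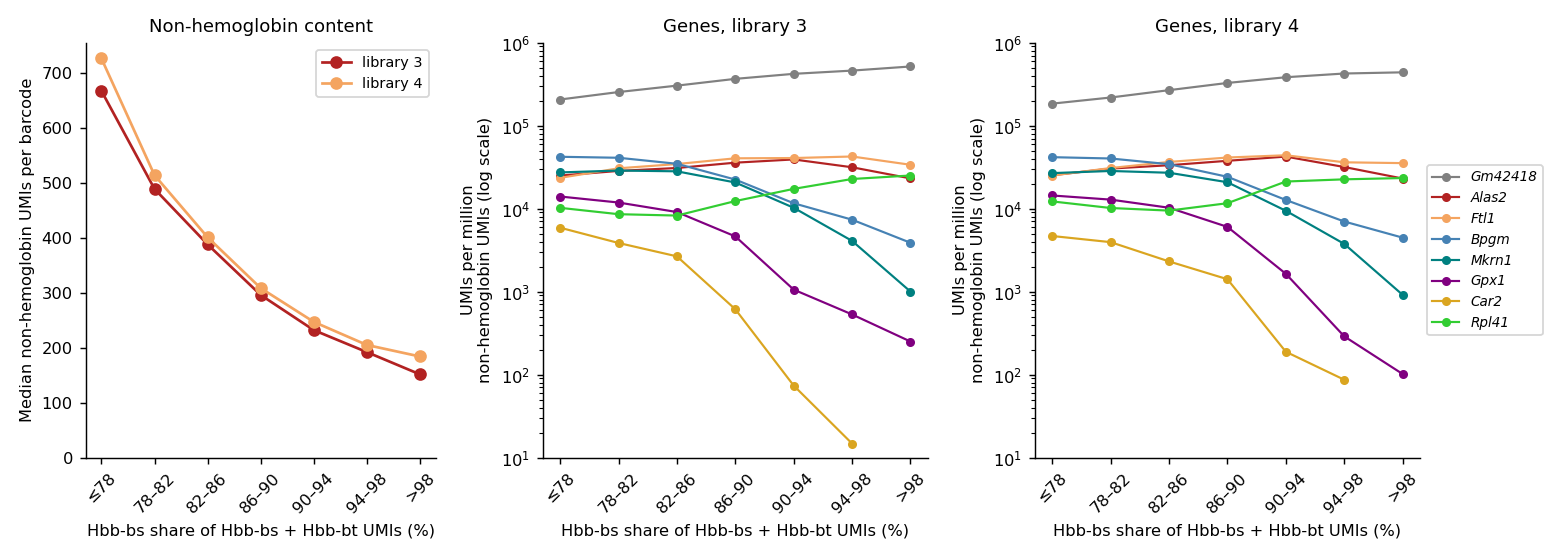
Red cell barcodes are grouped by the Hbb-bs share of adult beta globin UMIs (horizontal axis, percent), with the median non-hemoglobin UMIs per barcode at the left and CPM of 8 genes on a log axis for libraries 3 and 4 (values of 0 are not drawn). Non-hemoglobin RNA is lower from range to range in both libraries, Car2, Gpx1, Mkrn1 and Bpgm end far below their start, Alas2 and Ftl1 rise and then fall, and Ftl1, Gm42418 and Rpl41 end higher than they began.

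The barcodes of each library were also ranked by non-hemoglobin UMIs and cut into 4 groups of equal size. In the group with the least such RNA the median was 203 and 236 UMIs, and in the group with the most it was 669 and 712. Car2 had 109 and 196 CPM in the lowest group and 6539 and 6092 in the highest, a ratio of 60.2 and 31.1. Mpp1, a membrane skeleton protein, had ratios of 42.9 and 21.1. Lars2 (0.397 and 0.468), a gene whose reads can include ribosomal RNA, and Rpl41 (0.421 and 0.498) took smaller shares in the highest group.

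Some transcripts of the interferon response were unevenly spread over the red cell barcodes. Isg15, the ubiquitin-like protein induced by interferon and a partner of the enzyme encoded by Ube2l6, was detected in 23.5% and 26.8% of red cell barcodes, against 5.75% and 6.62% of lymphocytes. The variance of its UMIs per barcode was 14.8 and 36.7 times their mean. The 69 barcodes (1.76%) of library 3 and 57 (1.88%) of library 4 with 10 or more Isg15 UMIs held 43.4% and 50.4% of all of its UMIs, and the highest had 108 and 252. The bound of 10 was chosen after the data were seen and cuts a continuous range.

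Several other interferon-induced genes, named after their values were seen and without a test, were higher in these barcodes. Rsad2, Irf7 and Ifitm3 kept the order from 0 to 10 or more Isg15 UMIs in both libraries. Rsad2, an antiviral enzyme, had 12367 and 12675 CPM in barcodes with 10 or more Isg15 UMIs, against 1657 and 1687 in barcodes with none. Irf7, a transcription factor of the response, had 2070 and 3169 against 45.4 and 90.8, and Ifitm3, a membrane protein that restricts viruses, had 1901 and 3719 against 48.8 and 55.1. Less abundant members, Ifit1, Oas3, Sp100 and Ifi27, were higher as well, with 17 to 53 UMIs each in the top class. Bst2, with 9 UMIs in the top class of library 3 and 1 in that of library 4, did not keep the order in library 4.

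Isg20 and Ube2l6, both known to respond to interferon, differed little between the classes. Isg20 kept the order with 8312 and 8330 CPM in the top class against 6874 and 7433, while Ube2l6 had 9877 and 10038 against 9909 and 10582. Barcodes of the top class were also deeper, with medians of 772 and 877 non-hemoglobin UMIs against 356 and 378, and had a lower median Hbb-bs share (79.5% and 80.2% against 84.0% and 83.7%). Lymphocyte markers had 0 and 2 UMIs in them, border macrophage markers 0 and 2, endothelial markers 0 and 1, microglial markers 5 and 13 and neutrophil markers 0 and 14. Malat1 was no higher there than in barcodes without Isg15 (67.3 and 152 CPM against 164 and 562).

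**Figure D5:**
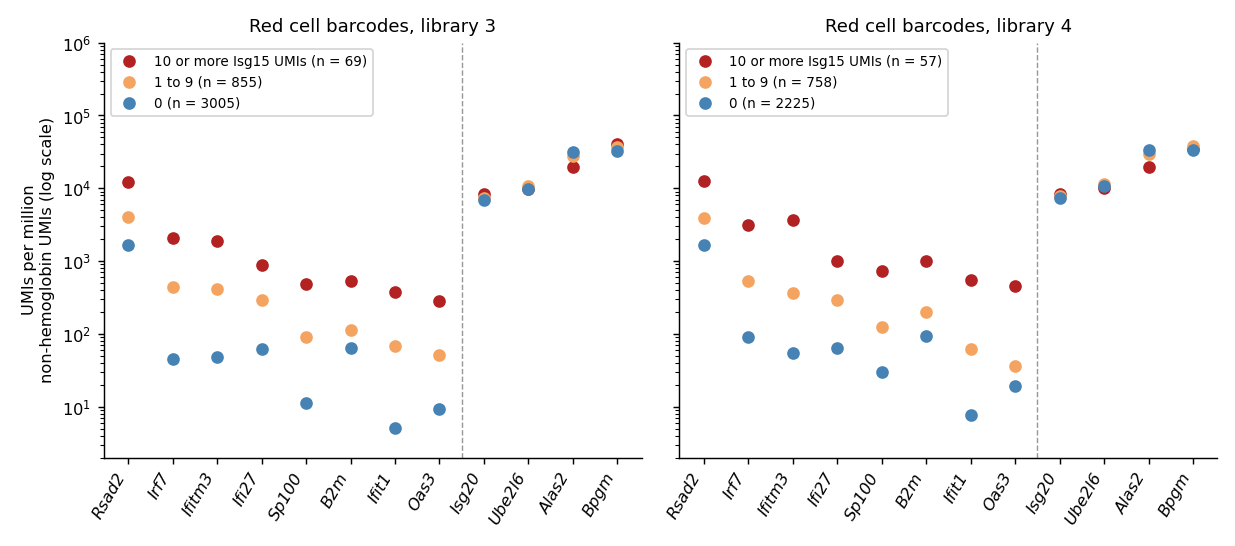
Points give CPM (log axis) of genes named on the horizontal axis in red cell barcodes with 10 or more (red), 1 to 9 (orange) or 0 (blue) Isg15 UMIs in libraries 3 and 4. Left of the dashed line the classes keep the order of their Isg15 UMIs in both libraries, and right of it Isg20, Ube2l6 and Bpgm nearly coincide while Alas2 is lowest in the top class.

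Red cell transcripts were also counted outside the red cell barcodes. Per 1000 hemoglobin UMIs, the red cell barcodes held 1.09 and 1.15 Alas2 UMIs, other cells with at most 20% hemoglobin held 0.753 and 1.25 (exact Poisson 95% intervals 0.431 to 1.22 and 0.909 to 1.68), and hemoglobin-rich barcodes with 500 or more genes held 1.25 and 1.37. Bpgm, at 1.25 and 1.26 in the red cell barcodes, was at 4.38 and 8.13 in the other cells with at most 20% hemoglobin. Sec61g, at 0.651 and 0.797 in the red cell barcodes, was at 112 and 172, and Mkrn1, at 0.922 and 0.920, was at 27.3 and 32.6, so these transcripts were counted in the other cells far above their ratio to hemoglobin in the red cell barcodes.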

How the data were processed

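Single cells of 6 libraries (10x Genomics 3′ kits, FACS for DRAQ5-positive, propidium iodide-negative cells) were aligned to mm10 by the authors with Cell Ranger, version 6.1.2 per the file headers and 3 in the submitters' processing notes, and the authors deposited raw UMI counts per gene and barcode with no normalization. The labels name papain and another brain region, the study's methods collagenase and dispase on the cortical surface. Members and gene lists were chosen with earlier results of these data known.

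The matrices of 31053 genes were read in Python 3.11.15. No doublet caller was run on the red cell barcodes. Other cells had 500 or more genes and mitochondrial UMIs of 10% or less. Counts without the 8 hemoglobin genes were summed per library and class. Genes with 10 or more UMIs in 2 of the 4 sums were tested with edgeR 4.0.16 (quasi-likelihood, TMM, library as block, Benjamini-Hochberg adjustment). DESeq2 1.42.0 served as an alternative. The edgeR fit was checked on simulated counts whose sums shared a common profile apart from the changed genes. That check does not cover the shift in scale between the classes. The 4 sums rest on 2 libraries of pooled mice, so p-values measure the spread between these libraries only. Genes were named as list members with 50 or more UMIs in both libraries, as the 25 most abundant, or as the 20 largest rises and 10 largest falls. Other genes in the text (list members with fewer UMIs such as Eno1 and Tfrc, markers of other cells such as Cd79b, genes that differed between libraries such as Ctsd, Rpl3, H3f3b and Ppia, Mpp1, and the interferon genes) were named after their values were seen, and some genes that meet it are not reported here. Intervals are exact and cover counting error only. Promoters came from RefSeq (GRCm38.p6) and gene positions from GENCODE.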

Additional observations from a re-analysis of the deposited data

How the results depend on the processing

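Of 1164 genes higher and 531 lower in red cell barcodes, counts kept within 1.5 times under other size factors, no filter on low counts, hemoglobin over 50% or 90%, other cells with at most 20% hemoglobin or without a mitochondrial limit, shared barcodes left out, and ribosomal RNA models left out. Without the replicate block, in which the library pairs the sums, 1287 were higher and 871 lower. DESeq2 called 176 lower, a filter of 50 UMIs 341, and no limit on genes for the red cell barcodes 92. Against barcodes under 500 genes with at most 20% hemoglobin, 673 were higher among 1756 tested, fewer since fewer genes had counts. Scaling to the total of non-hemoglobin UMIs gave 318 higher and 10779 lower, since it does not move the scale to the trace level. With 1 library left out there is no test, and 319 to 345 genes had at least 2 times the share in red cell barcodes.

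Of 84 named genes, the total turned the sign of Cd47 (-1.96), Sqstm1 (-0.46, not called), Prdx1 (-2.79) and Gpx4 (-2.21). The low-gene barcodes turned the sign of Prdx1 (-0.58) and Gpx4 (-0.25). No limit on genes turned that of Taok3 (0.0011) and Il2rg (0.24), the last 2 at 0 or 1 UMI. Gapdh, not called with TMM, was lower with the total (-4.08). Another 10 calls were lost without a limit on genes, 6 with DESeq2 and 3 with the total. Without a limit on genes, 7242 barcodes were counted, non-hemoglobin UMIs rose to 4.94% of the total (3.48% under 300 genes), and shares of non-hemoglobin UMIs were 2.27% mitochondrial, 10.3% ribosomal protein, 1.60% antioxidant, 0.0751% transcription factor, 2.49% glycolysis, 2.48% heme, 3.65% iron, 0.654% membrane, 1.98% mitochondrial clearance, 0.822% nuclear-retained, 3.06% other red cell and 5.45% ubiquitin genes. Medians of 378 and 407 non-hemoglobin UMIs limit detection per barcode.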
